A study of Mus musculus with 18 samples.

Results

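Hepcidin, heme and iron handling in mouse liver is described here through 10 genes, namely the hepcidin genes Hamp and Hamp2, the heme oxygenase Hmox1, the transferrin receptors Tfrc and Tfr2, the iron exporter Slc40a1 (ferroportin), transferrin (Trf), the ferritin chains Fth1 and Ftl1, and ceruloplasmin (Cp). The genes were chosen by symbol, and the symbols were matched to Ensembl identifiers through GENCODE vM21. They are 10 of 47729 features in the deposited table, and all 10 were among the 12686 features with a mean normalized count of at least 10 that were tested. Normalized counts are read counts per gene divided by a size factor for each library.

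The study profiled liver RNA from mice after ischemia-reperfusion, in which the blood supply of the liver is interrupted and then restored, or after sham surgery. The mice were wild type (Wt), Il22-/- or Il22bp-/-, with 3 samples for each genotype and surgery and 18 samples in all. The cytokine IL-22 signals to hepatocytes and other epithelial cells, and Il22ra2 encodes IL-22BP, a secreted protein that captures it. The labels used here give no strain, age, sex, time after surgery or number of animals per sample, so the p-values measure only the spread between these samples. The table heads its columns IR1 to IR9 and W1 to W9 and gives no genotype. The IR libraries are the ischemia-reperfusion samples, and the W libraries were read as sham by elimination, since 9 of each kind exist. Every comparison below is therefore ischemia-reperfusion against sham with the 3 genotypes mixed, and no genotype was compared.

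Hepcidin is a small peptide hormone that hepatocytes secrete. It binds ferroportin, the exporter through which macrophages, enterocytes and hepatocytes release iron, and causes its degradation, so that iron stays in the cells and plasma iron falls. Hepcidin transcription is driven by iron through the bone morphogenetic protein (BMP) and SMAD pathway, and by inflammation through interleukin-6 and STAT3. Mice have a second hepcidin gene, Hamp2, next to Hamp, and its level in mouse liver is known to differ between strains and sexes. The ferritin chains, ferroportin and Tfrc are also regulated after transcription, by iron regulatory proteins that bind hairpins in their mRNAs, and Hmox1 breaks heme down to biliverdin, carbon monoxide and iron.

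The libraries of the 2 surgeries differed in sex-linked transcripts. All 9 sham libraries held Xist, the RNA of the inactive X chromosome, at 1751 to 5335 normalized counts, and the sum of the Y-linked genes Ddx3y, Kdm5d, Eif2s3y and Uty was at most 2.07. Among the ischemia-reperfusion libraries, 4 (IR1, IR2, IR4 and IR7) had Y-linked sums of 734 to 1034 with Xist at 11.5 or below. Another 2 (IR5 and IR8) held both, with Xist at 542 and 964 and Y-linked sums of 745 and 444. The labels do not say whether these 2 samples pool or mix tissue of both sexes. Neither that nor any link to their high Hmox1 and Fth1 values was tested. Only IR3, IR6 and IR9 resembled the sham libraries, with Xist at 2312 to 4305 and Y-linked sums of 1.84 or less. For the 6 libraries with Y-linked counts, surgery and the sex of the tissue cannot be told apart. Each result on the 10 genes and each count over a list is therefore given for all 18 libraries and again for the 12 libraries without Y-linked counts, 3 after ischemia-reperfusion and 9 after sham surgery. Other pathway genes named with a value over all libraries had the same call in the 12 libraries unless stated. That second comparison was chosen after seeing the data, and the genotypes of its 3 ischemia-reperfusion libraries are not known.

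Recovered read totals ran from 10176617 to 12558179 in the ischemia-reperfusion libraries and from 10716890 to 12763837 in the sham libraries, so depth was similar. In both surgeries, 3 of 9 libraries had Il22ra2 above 2 normalized counts, and Il22 was at 0 in all 18. Liver markers were present in every library, and Alb took 2.86 to 7.48% of counts after ischemia-reperfusion and 12.9 to 15.9% after sham surgery. Across the whole table, limma called 9641 of 12686 genes at a Benjamini-Hochberg adjusted p under 0.05, which is 76.0% of them, with 38.3% higher and 37.7% lower after ischemia-reperfusion. Of the tested genes, 40.2% had libraries that did not overlap between the surgeries. Without the 6 libraries that carry Y-linked counts, 68.3% of 12557 genes were called, 33.1% higher and 35.2% lower. Most genes of this liver thus differed between the surgeries, and a call on any one of the 10 genes was not unusual.

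The proximal promoters of the 2 hepcidin genes are shown because the genes differed in their response and these stretches are alike at most positions. Sequence farther from the start was not compared between the 2 genes. Both come from RefSeq on GRCm38.p6, run 5′ to 3′ on the minus strand and hold the 140 bases before the transcription start, at chr7:30944030-30944169 for Hamp and chr7:30924182-30924321 for Hamp2. Capitals mark GGCGCC, the core of the BMP-responsive element, and TTCTTGGAA, a match to the STAT element TTCNNNGAA.
Hamp: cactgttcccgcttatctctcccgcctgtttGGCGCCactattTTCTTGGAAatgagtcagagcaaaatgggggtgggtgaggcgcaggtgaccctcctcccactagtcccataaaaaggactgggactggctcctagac
Hamp2: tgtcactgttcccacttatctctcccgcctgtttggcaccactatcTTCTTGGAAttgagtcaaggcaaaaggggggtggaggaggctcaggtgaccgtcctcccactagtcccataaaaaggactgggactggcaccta

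The 2 stretches were identical at 125 of 143 aligned columns (87.4%), with 12 substitutions and 6 gap columns. TTCTTGGAA began 97 bases before the start in Hamp and 94 bases before it in Hamp2. GGCGCC began 109 bases before the start in Hamp, at position 32 of the printed stretch, and the aligned letters in Hamp2 were GGCACC. The difference is the substitution G35A, with positions counted from 1 at the 5′ end of the printed Hamp stretch. Both motifs are palindromic, so each match lies on both strands, and they do not overlap. Of 32851 RefSeq promoter windows of 300 bases, 11.9% held GGCGCC and 8.30% held TTCNNNGAA. The antioxidant response element TGACNNNGC was also searched on both strands, was found in 12.4% of windows, and was in none of the 12 windows of the 7 genes that had a promoter entry (Hamp, Hamp2, Tfrc, Tfr2, Fth1, Ftl1 and Cp). Among those windows GGCGCC was also in 1 of Tfrc, 89 bases before a start. A match is a run of letters and not a measured site.

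The iron-responsive elements of 4 of the genes are shown because they mark which mRNAs the iron regulatory proteins can bind. Each was found in the untranslated regions of GENCODE vM21 transcripts, and capitals mark the hairpin loop letters CAGTGN. Only some annotated coding transcripts hold them, namely 4 of 5 for Fth1, 1 of 2 for Ftl1, 1 of 4 for Slc40a1 and 1 of 3 for Tfrc. Counts per gene do not tell these transcripts apart. The elements of Fth1, Ftl1 and Slc40a1 lie in the 5′ untranslated region, where binding blocks translation.
Fth1: cctgcttcaaCAGTGCttgaacgga
Ftl1: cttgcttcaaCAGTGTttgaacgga
Slc40a1: acttcagctaCAGTGTtagctaagt
In Tfrc the search found 4 such elements, all in the 3′ untranslated region, where binding protects the mRNA from decay. Elements that differ from the searched pattern would be missed.
Tfrc site 1: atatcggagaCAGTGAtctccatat
Tfrc site 2: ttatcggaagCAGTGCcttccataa
Tfrc site 3: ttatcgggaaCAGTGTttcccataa
Tfrc site 4: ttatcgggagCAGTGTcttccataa

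Over all 18 libraries, 5 of the 10 genes were higher after ischemia-reperfusion (Hmox1, Tfr2, Trf, Fth1 and Cp), 2 were lower (Hamp2 and Slc40a1) and 3 were not called (Hamp, Tfrc and Ftl1). The called share, 70%, was below that of all tested genes (76.0%), and 2 genes, Hamp2 and Slc40a1, had libraries that did not overlap, against 40.2% of all genes. Without the libraries that carry Y-linked counts, 4 genes were higher (Hamp, Hmox1, Trf and Cp), 2 were lower (Hamp2 and Slc40a1) and 4 were not called. In that comparison 68.3% of all tested genes were called, 33.1% higher and 35.2% lower. Hmox1, Trf, Cp, Hamp2 and Slc40a1 thus had the same call in both comparisons, whereas Hamp, Tfr2 and Fth1 did not.

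**Figure D1:**
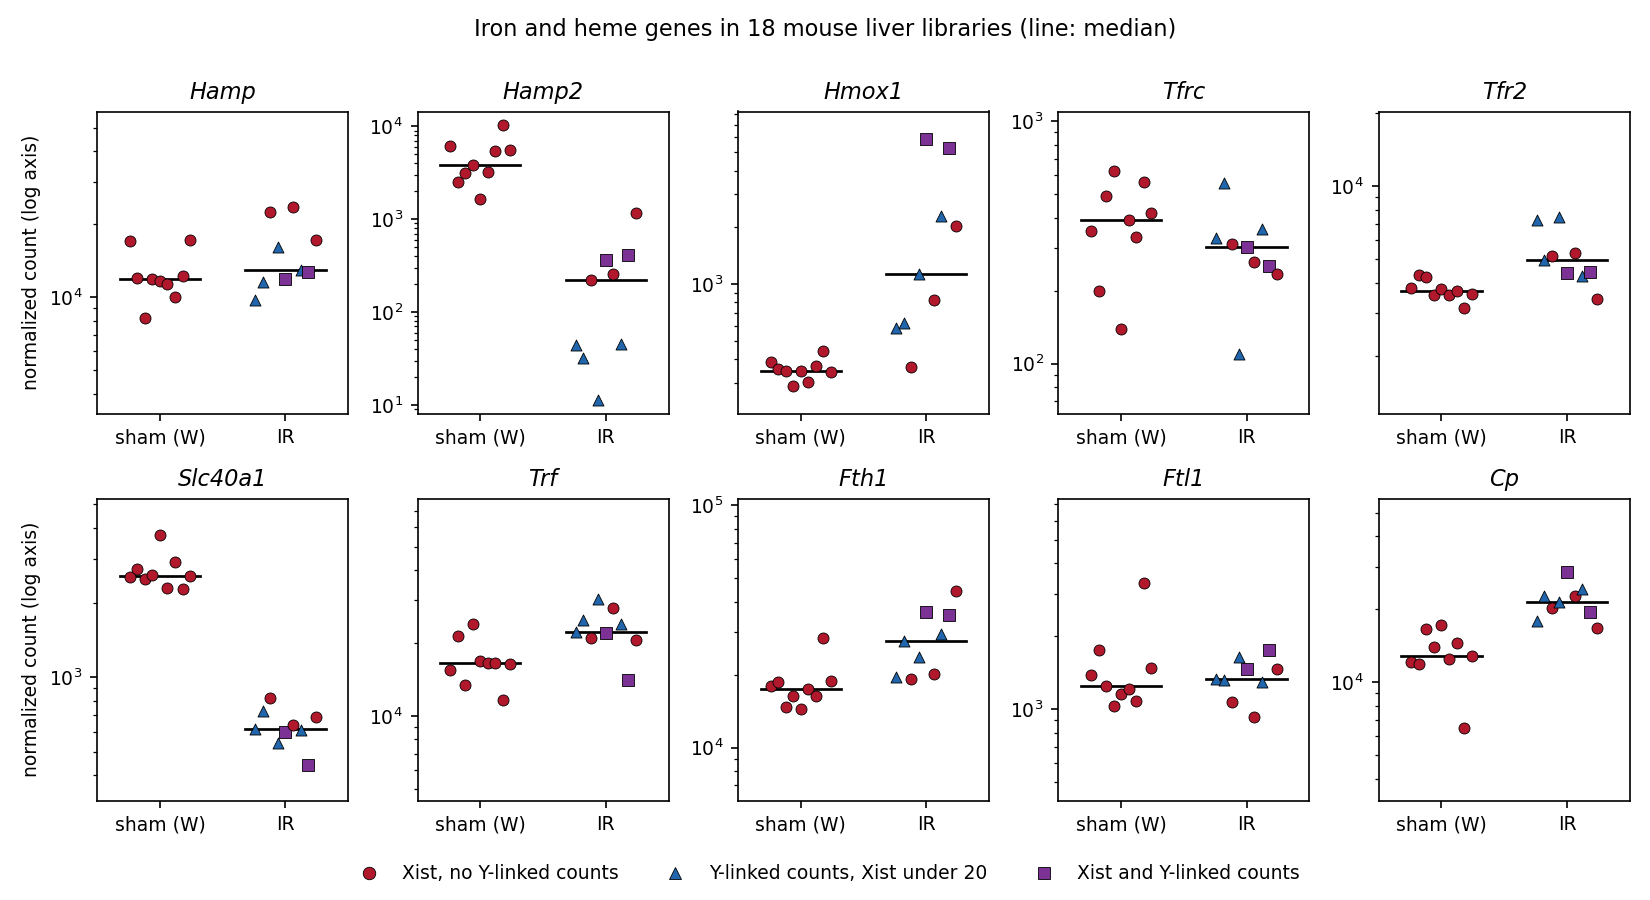
Normalized counts (vertical log axes) of the 10 genes in each of 18 libraries, with sham libraries on the left and ischemia-reperfusion libraries (IR) on the right of each panel. Points are libraries, symbols give their Xist and Y-linked counts, and lines are group medians. The groups are apart for Hamp2 and Slc40a1 and overlap in the other 8 panels.

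Hamp2 was the member with the largest difference, and it fell while Hamp did not. Hamp2 (ENSMUSG00000056978, chr7:30922372-30924681, minus strand) was at 1661, 3798 and 10324 normalized counts in the lowest, median and highest sham library. After ischemia-reperfusion it was at 11.2, 219 and 1162. Every ischemia-reperfusion library lay below every sham library. The difference was -5.01 on the log2(normalized count + 1) scale (SE 0.68, n = 9 and 9, limma adjusted p = 1.24e-06), or 32.2-fold lower. On the recovered reads edgeR gave -4.06 and DESeq2 -4.04, and the means of the 2 groups differed 16.4-fold, so the size of the fall depends on the scale. The 4 ischemia-reperfusion libraries with Y-linked counts and almost no Xist were the lowest, at 11.2 to 44.9. The 2 with both held 365 and 415, and IR3, IR6 and IR9 held 219, 258 and 1162. Against the sham libraries, those last 3 gave a difference of -3.33 (SE 0.50, adjusted p = 2.37e-05), or 10.1-fold lower, and -4.10 without IR9. The fall thus held without the libraries that carry Y-linked counts with a smaller estimate. With the Y-linked level as a covariate over all 18 libraries, the difference was -3.14 (adjusted p = 0.000591).

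Hamp (ENSMUSG00000050440, chr7:30942368-30944032, minus strand), the gene of the hormone that acts on ferroportin, was at 8230, 11898 and 17308 normalized counts in the lowest, median and highest sham library. After ischemia-reperfusion it was at 9779, 12907 and 23522, and the groups overlapped. The difference was 0.28 (95% interval -0.09 to 0.64, SE 0.18, adjusted p = 0.154) and did not pass the test. The ischemia-reperfusion libraries split here too. The 4 with Y-linked counts and almost no Xist held 9779 to 16160, the 2 with both held 11895 and 12768, and IR3, IR6 and IR9 held 22521, 23522 and 17177. Hamp was higher after ischemia-reperfusion in the 12 libraries without Y-linked counts, by 0.78 (95% interval 0.36 to 1.20, SE 0.20, adjusted p = 0.00248), or 1.72-fold. IR3 and IR6 lay above every sham library and IR9 did not. With the Y-linked level as a covariate over all 18 libraries the difference was 0.75 (adjusted p = 0.00153). The call on Hamp therefore depended on how the sex-linked difference was handled.

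Hamp2 made up 12.5, 24.4 and 45.7% of the summed hepcidin counts in the lowest, median and highest sham library and 0.0695, 0.965 and 6.34% after ischemia-reperfusion. Hamp was the larger part in all 18 libraries, and the 2 groups did not overlap in this share. The log2 ratio of Hamp2 to Hamp differed by a mean of -5.32 after ischemia-reperfusion, or 39.9-fold lower, with an exact two-sided permutation p = 4.11e-05, the smallest that 9 against 9 libraries can give. The ratio was 17.4-fold lower in the 12 libraries (exact permutation p = 0.00909, the smallest possible there). The sum of Hamp and Hamp2 ran from 9823 to 23780 after ischemia-reperfusion (median 13183) and from 11402 to 23223 after sham surgery (median 15536), and these ranges overlapped almost fully. The ischemia-reperfusion libraries split here as well. Those with Y-linked counts held sums of 9823 to 16171, and IR3, IR6 and IR9 held 22740, 23780 and 18340. The difference in the sum was not tested. The 2 genes are close copies, and reads could be assigned to the wrong one. IR4, with Hamp2 at 11.2 beside Hamp at 16160, bounds the share of Hamp reads counted as Hamp2 at 0.0695% in that library. The reverse, Hamp2 reads counted as Hamp, is not bounded by these values. This ratio and its test were chosen after seeing the values.

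**Figure D2:**
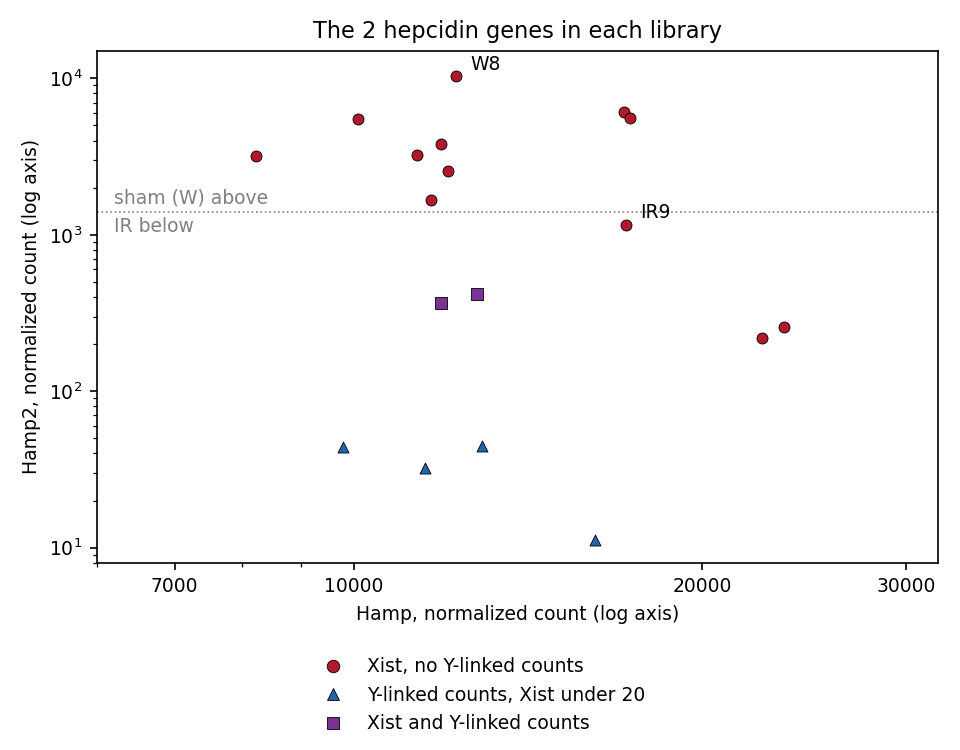
Hamp (horizontal log axis) against Hamp2 (vertical log axis), in normalized counts, for 18 libraries, with symbols by Xist and Y-linked counts. The sham libraries lie above the dotted line at 1661 to 10324 Hamp2 counts and the ischemia-reperfusion libraries below it at 11.2 to 1162, whereas the spans of Hamp overlap.

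The genes that control hepcidin were called in both directions, as was the table as a whole, and the counts in each list stand beside 76.0% called over all tested genes (38.3% higher and 37.7% lower). In the list for BMP, hemojuvelin and SMAD signalling, 8 of 19 tested genes were higher, 6 were lower and 5 were not called, a share near that of all genes, with a median difference of 0.20 against 0.02 over all tested genes. The ligands were split. Inhbb, which encodes the activin B subunit, rose from a median of 8.78 to 208 normalized counts (log2 difference 4.44, SE 0.42, adjusted p = 9.2e-09). Bmp2 fell from 290 to 114 (-1.15, SE 0.13, adjusted p = 1.69e-07) and Bmp6, the main iron-sensing ligand of the liver, fell from 54.1 to 26.1 (-1.02, SE 0.21, adjusted p = 0.000176). The receptor Bmpr2 also fell (-0.68, adjusted p = 5.85e-06). Among targets of SMAD signalling 2 rose strongly, Atoh8 at 448 against 110 (1.80, adjusted p = 4.56e-10) and Id3 at 1350 against 579 (1.44, adjusted p = 6.05e-07). Id1, another target, was at 95.2 to 816 after ischemia-reperfusion and 106 to 234 after sham surgery and did not pass the test (0.71, adjusted p = 0.0541), but it was called higher in the 12 libraries (0.99, adjusted p = 0.0146). Hemojuvelin (Hfe2), the BMP co-receptor, spread from 116 to 1345 after ischemia-reperfusion and from 428 to 688 after sham surgery (0.18, adjusted p = 0.659). The list also had 8 genes higher and 6 lower in the 12 libraries without Y-linked counts, with the same call for 17 of 19 genes. The receptor gene Acvr1 was not called there (0.15, adjusted p = 0.303) and Id1 was. In that comparison Inhbb, Bmp2, Bmp6, Atoh8 and Id3 differed by 4.41, -1.02, -1.24, 1.95 and 1.46.

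The inflammatory arm also had genes called in both directions. Among 10 tested genes of the interleukin-6, STAT3 and CREBH list, 5 were higher and 1 was lower, with a median difference of 0.51. The other 4 (Il6ra, Jak1, Jak2 and Il10rb) were not called, and the 12 libraries without Y-linked counts gave the same counts. Of all tested genes 76.0% were called, 38.3% higher and 37.7% lower. In the 12 libraries these shares of all tested genes were 68.3%, 33.1% and 35.2%. Socs3, the feedback inhibitor of STAT3, was at a median of 1738 against 102 normalized counts (4.19, SE 0.25, adjusted p = 1.23e-11). Stat3 itself was at 2846 against 821 (1.82, SE 0.07, adjusted p = 8.2e-14). Il22ra1, the IL-22 receptor subunit, was at 60.7 against 15.0 (2.34, adjusted p = 9.49e-09), and Cebpa, a hepatocyte transcription factor that drives Hamp, was lower at 3321 against 5840 (-0.88, adjusted p = 0.000193). Il6 was too low to be tested.

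Of the repressor and erythroid list, 5 of 7 genes were tested, and 3 were higher, 1 was lower and 1 was not called, as in the 12 libraries. Gdf15, a secreted stress factor, was higher at 232 against 41.0 normalized counts (2.74, adjusted p = 8.42e-05) and by 1.98 in the 12 libraries. Furin, a protease that processes prohepcidin, and Epas1, the hypoxia factor HIF-2α, were higher by 1.02 and 0.47. Tmprss6, the protease that cleaves hemojuvelin, was lower at 3192 against 4638 (-0.46, SE 0.11, adjusted p = 0.000765). Its difference was -0.70 in the 12 libraries. Erfe and Epo were too low to be tested.

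Ferroportin fell in every ischemia-reperfusion library. Slc40a1 (ENSMUSG00000025993, chr1:45908068-45926523, minus strand) was at 2278, 2560 and 3763 normalized counts in the lowest, median and highest sham library and at 443, 619 and 824 after ischemia-reperfusion. The highest ischemia-reperfusion value was well under the lowest sham value. The difference was -2.09 (SE 0.11, n = 9 and 9, adjusted p = 1.93e-12), or 4.25-fold lower. IR3, IR6 and IR9 held 824, 638 and 691, and in the 12 libraries the difference was -1.89 (SE 0.14, adjusted p = 1.57e-08), or 3.72-fold lower. This was the tightest large difference among the 10 genes, with log2 SDs of 0.26 and 0.22 that lay near the medians over all tested genes (0.33 after ischemia-reperfusion and 0.22 after sham surgery).

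Kupffer cells, the resident macrophages of the liver, express much ferroportin, and their markers moved the same way. Of 8 Kupffer markers 6 were lower, 1 (Marco) was higher and 1 (Cd163) was not called, with a median difference of -1.54, and the 12 libraries gave the same counts. The marker counts here and below stand beside 76.0% of all tested genes called, with 38.3% higher and 37.7% lower. In the 12 libraries these shares were 68.3%, 33.1% and 35.2%. The summed level of the Kupffer markers was 2433 to 4448 normalized counts after ischemia-reperfusion and 6267 to 8595 after sham surgery. No Kupffer marker was at 0 throughout. Clec4f, the defining Kupffer gene, was at a median of 1042 against 2682 (-1.32), and Cd5l at 669 against 2528 (-1.83). In IR3, IR6 and IR9 the sum was 3338 to 4448. The part of these markers in the Slc40a1 result was not tested. In RNA from whole tissue, fewer cells of a type and less RNA per cell cannot be told apart.

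Hepatocyte markers also moved, since 6 of 8 were lower and 1 (Hnf4a) was higher, and their sum was 547992 to 902268 normalized counts after ischemia-reperfusion against 1959715 to 2373112. The most abundant, Alb and Apoa1, differed by -1.80 and -0.61, and 7 of 8 markers were lower in the 12 libraries. Neutrophil markers were higher for all 7 tested (median 4.12), with sums of 337 to 4260 against 58.0 to 130. Their leading genes S100a9 and S100a8, the calprotectin subunits, differed by 4.07 and 3.94, and the 12 libraries had 6 of 6 tested markers higher.

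Markers of the other cell types were split. Of 6 monocyte markers 3 were higher and 2 were lower (median 0.18), but 2 were higher and 3 were lower in the 12 libraries (median -0.25), and their sum was 550 to 1796 against 1911 to 3262. The most abundant, Lyz2 and Plac8, differed by -1.81 and -1.59. The 3 called higher were Chil3 (5.35), Itgam (3.30) and Ccr2 (0.82, not called in the 12 libraries). Of 6 sinusoidal endothelial markers 1 was higher and 4 were lower, or 1 and 3 in the 12 libraries, with sums of 1565 to 2413 against 3052 to 4533. Clec4g and Fcgr2b, scavenging receptors of these cells, differed by -2.05 and -1.60, and Lyve1, the 1 called higher, by 0.55. Stellate cell markers were 3 higher and 3 lower, or 2 and 3 in the 12 libraries, with the matrix genes Dcn at -1.09 and Col3a1 at 0.56 (0.02 and not called in the 12 libraries). The part of these markers in the results on the 10 genes was not tested.

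The 2 plasma proteins that carry and oxidize iron were higher. Cp (ENSMUSG00000003617, chr3:19957054-20009145, plus strand), the copper oxidase that helps iron leave cells through ferroportin and load onto transferrin, was at 6494, 12869 and 17207 normalized counts in the lowest, median and highest sham library. After ischemia-reperfusion it was at 16806, 21498 and 28607. Of the 9 ischemia-reperfusion libraries 8 lay above the highest sham library. The difference was 0.74 (SE 0.15, adjusted p = 0.00019), or 1.68-fold. With IR3, IR6 and IR9 at 20216, 22732 and 16806, the 12 libraries gave 0.64 (SE 0.23, adjusted p = 0.0205), but 0.62 without IR3 (adjusted p = 0.0539) and 0.54 without IR6 (adjusted p = 0.0951).

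Trf (ENSMUSG00000032554, chr9:103204001-103230444, minus strand), which encodes the iron carrier of plasma, was at 11608, 16468 and 24003 normalized counts after sham surgery. After ischemia-reperfusion it was at 14127, 22140 and 30418. The groups overlapped, with 4 of 9 ischemia-reperfusion libraries above the highest sham library. The difference was 0.45 (SE 0.15, adjusted p = 0.00964), or 1.36-fold. It was 0.47 in the 12 libraries (SE 0.19, adjusted p = 0.0398), from IR3, IR6 and IR9 at 21028, 27994 and 20506. That call was lost when any of IR3, IR6, W1, W3, W5, W6, W7 or W9 was left out (adjusted p = 0.0502 to 0.209), and also with the Y-linked level as a covariate (0.38, adjusted p = 0.103).

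Of the transferrin receptors, Tfr2 was called higher over all libraries and Tfrc was not called, and the difference between their responses was not tested. Tfrc (ENSMUSG00000022797, chr16:32608920-32632794, plus strand), which takes transferrin-bound iron into cells, was at 139, 393 and 624 normalized counts after sham surgery and at 109, 303 and 554 after ischemia-reperfusion. The groups overlapped along nearly their whole range. The difference of -0.35 (95% interval -0.94 to 0.24, adjusted p = 0.265) did not pass the test, and neither did that in the 12 libraries (-0.41, adjusted p = 0.299). Tfrc varied 4.51-fold among the sham libraries alone, with a log2 SD of 0.70 against a median of 0.22 over all tested genes.

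Tfr2 (ENSMUSG00000029716, chr5:137569840-137587481, plus strand), the hepatocyte receptor that senses transferrin-bound iron and takes part in hepcidin control, was at 3145, 3702 and 4296 normalized counts after sham surgery. After ischemia-reperfusion it was at 3442, 4962 and 7478, with 7 of 9 libraries above the highest sham library. The difference was 0.44 (SE 0.13, adjusted p = 0.00367), or 1.35-fold. The highest levels were in IR1 (7260) and IR4 (7478), which carry Y-linked counts. In the 12 libraries the difference was 0.29 (SE 0.13, adjusted p = 0.0673) and was not called, though it was 0.49 without IR9 (adjusted p = 0.00142) and 0.18 without IR6 (adjusted p = 0.328). With the Y-linked level as a covariate it was 0.27 (adjusted p = 0.146).

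**Figure D3:**
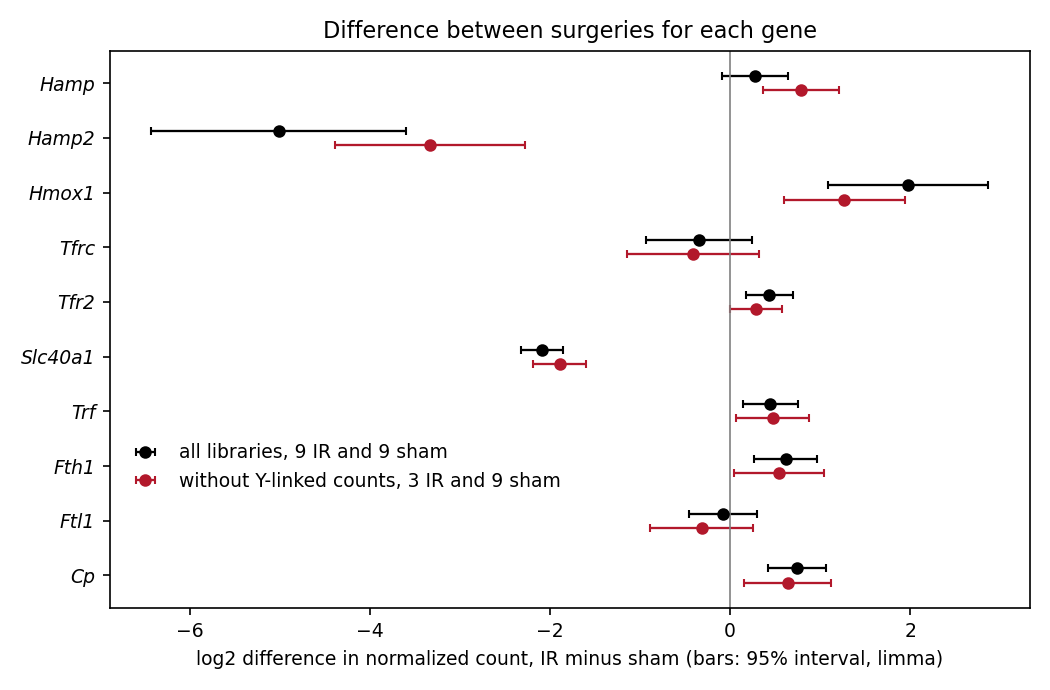
Log2 difference in normalized count, ischemia-reperfusion minus sham (horizontal axis), for the 10 genes over all 18 libraries (black) and over the 12 libraries without Y-linked counts (red). Points are limma estimates and bars are 95% intervals. Hamp2 and Slc40a1 lie below 0 and Hmox1 above 0 in both comparisons, and the interval of Hamp is above 0 only in the second.

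Heavy-chain ferritin was higher and light-chain ferritin was not called. Fth1 (ENSMUSG00000024661, chr19:9980598-9985098, plus strand) encodes the chain that oxidizes iron for storage. It was at 14491, 17430 and 28326 normalized counts after sham surgery and at 19218, 27550 and 44384 after ischemia-reperfusion. Leaving W8 aside, all sham libraries were at 18770 or less, under every ischemia-reperfusion library. The difference was 0.62 (SE 0.17, adjusted p = 0.00254), or 1.53-fold. The 2 libraries with both Xist and Y-linked counts were high, at 35305 and 36266. With the Y-linked level as a covariate the call held (0.64, adjusted p = 0.0220). In the 12 libraries the difference was 0.54 (SE 0.24, adjusted p = 0.0536) and rested on IR9. IR3 and IR6 held 19218 and 20206 beside 44384 in IR9, and the difference was 0.15 without IR9 (adjusted p = 0.506). It passed the test without IR3 (0.75, adjusted p = 0.0197), without IR6 (0.72, adjusted p = 0.0325) or without W8 (0.63, adjusted p = 0.0154).

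Ftl1 (ENSMUSG00000050708, chr7:45457944-45459884, minus strand), the chain that promotes mineral formation inside ferritin, was at 1032, 1249 and 3328 normalized counts after sham surgery and at 933, 1327 and 1762 after ischemia-reperfusion. The difference was -0.08 (95% interval -0.46 to 0.30, adjusted p = 0.700), and it was 0.075 without W8, the library at 3328. It was -0.32 in the 12 libraries (adjusted p = 0.308). Annotated ferritin copies and pseudogenes held few reads, since 8 of 13 such features were at 0 in all libraries and the highest value was 13.5. How reads that align to several ferritin copies were counted is not given, so the levels of Fth1 and Ftl1 against other genes are uncertain.

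The ratio of Fth1 to Ftl1 was 8.51, 12.7 and 15.8 in the lowest, median and highest sham library and 14.4, 20.9 and 30.2 after ischemia-reperfusion. The log2 ratio was higher by a mean of 0.70, or 1.62-fold (exact two-sided permutation p = 0.00037), by 0.63 without W8 (exact permutation p = 0.00074) and by 0.86 in the 12 libraries (exact permutation p = 0.00909, the smallest possible there). The 2 chains, which both have transcripts with nearly the same iron-responsive element, thus differed in how their mRNA levels compared between the surgeries. This ratio was chosen after seeing the values.

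Hmox1 (ENSMUSG00000005413, chr8:75093621-75100589, plus strand) rose and became the most variable member after Hamp2. It was at 287, 347 and 441 normalized counts after sham surgery, a narrow range, and at 363, 1136 and 5874 after ischemia-reperfusion. Of the 9 ischemia-reperfusion libraries 8 lay above the highest sham library, and IR3 did not. The difference was 1.97 (SE 0.43, adjusted p = 0.000306), or 3.93-fold. On the recovered reads edgeR gave 2.55 and DESeq2 2.58, and the means of the 2 groups differed 5.98-fold. Its log2 SD was 1.42 after ischemia-reperfusion and 0.18 after sham surgery. The highest values, 5874 and 5252, were in IR5 and IR8, the 2 libraries with both Xist and Y-linked counts, whose origin is in doubt. The 4 libraries with Y-linked counts and almost no Xist held 588 to 2284. With IR3, IR6 and IR9 at 363, 818 and 2022, the 12 libraries gave a difference of 1.27 (SE 0.32, adjusted p = 0.00226), or 2.41-fold, and it ranged from 0.64 without IR9 (adjusted p = 0.0145) to 1.88 without IR3. Macrophages also make Hmox1, and 6 of 8 Kupffer markers were lower, with sums of 2433 to 4448 against 6267 to 8595. Their part in the result was not tested.

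Regulators of Hmox1 and targets of the oxidative stress factor NRF2 were called in both directions. Of 12 tested genes 6 were higher, 3 were lower and 3 were not called, a share near the 76.0% of all tested genes, with a median difference of 0.56. In the 12 libraries 5 were higher and 4 were lower. Srxn1, which repairs oxidized peroxiredoxins, was at 1877 against 381 normalized counts (2.78, adjusted p = 2.66e-07). Gclc, the catalytic subunit of glutathione synthesis, was at 6614 against 1530 (1.78, adjusted p = 1.65e-05). Its partner Gclm was lower at 1375 against 2119 (-0.52, adjusted p = 0.000219). The quinone reductase Nqo1 was lower at 65.0 against 227 (-1.47, adjusted p = 8.6e-07), as was Nfe2l2, the gene of NRF2, at 492 against 757 (-0.51, adjusted p = 0.000845). Maff, a partner of NRF2 and of the repressor BACH1, was higher over all libraries (1.48, adjusted p = 0.00956) and was not called in the 12 libraries (0.63).

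Of 9 heme synthesis genes 5 were lower, 1 was higher and 3 were not called, with a median difference of -0.56, and the 12 libraries had 6 lower and 1 higher. Fech, which inserts iron into the heme ring, was at 870 against 1620 normalized counts (-1.01, SE 0.11, adjusted p = 6.54e-08). Urod and Alad differed by -0.75 and -0.68, and Alas1, the rate-limiting enzyme in liver, was at 3555 against 5353 (-0.56, adjusted p = 0.000428). Ppox was the 1 gene called higher (0.90, adjusted p = 2.85e-06). Alas2, the erythroid enzyme, was at 51.5 to 706 after ischemia-reperfusion and 77.6 to 156 after sham surgery. It was not called over all libraries (0.93, adjusted p = 0.0535) and had the opposite sign in the 12 libraries, where it was called lower (-0.80). Of 5 tested erythroid markers, Alas2 among them, 1 was lower over all libraries and 3 in the 12 libraries, and their sum spread from 147 to 3366 after ischemia-reperfusion and from 534 to 3055 after sham surgery. Hbb-bs, a beta-globin gene, differed by -0.68 and was not called, and by -1.67 in the 12 libraries, where it was called lower.

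Genes of heme uptake, transport and breakdown were called in both directions. Of 14 genes 5 were higher, 6 were lower and 3 were not called, with a median of -0.23. In the 12 libraries 5 were higher and 4 were lower, and the median was 0.05. The scavengers and a receptor rose. Haptoglobin (Hp), which binds free hemoglobin, differed by 2.92 (SE 0.23, adjusted p = 5.68e-10), hemopexin (Hpx), which binds free heme, by 1.13 (adjusted p = 0.000207), and Lrp1, the receptor that takes up heme-hemopexin, by 1.23 (adjusted p = 1.65e-06). The biliverdin reductases, which act after Hmox1, fell, with Blvra at 148 against 267 normalized counts (-0.90) and Blvrb at 1018 against 1870 (-0.85). The heme and porphyrin exporter Abcg2 fell as well, at 352 against 723 (-1.01, adjusted p = 9.5e-07).

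**Figure D4:**
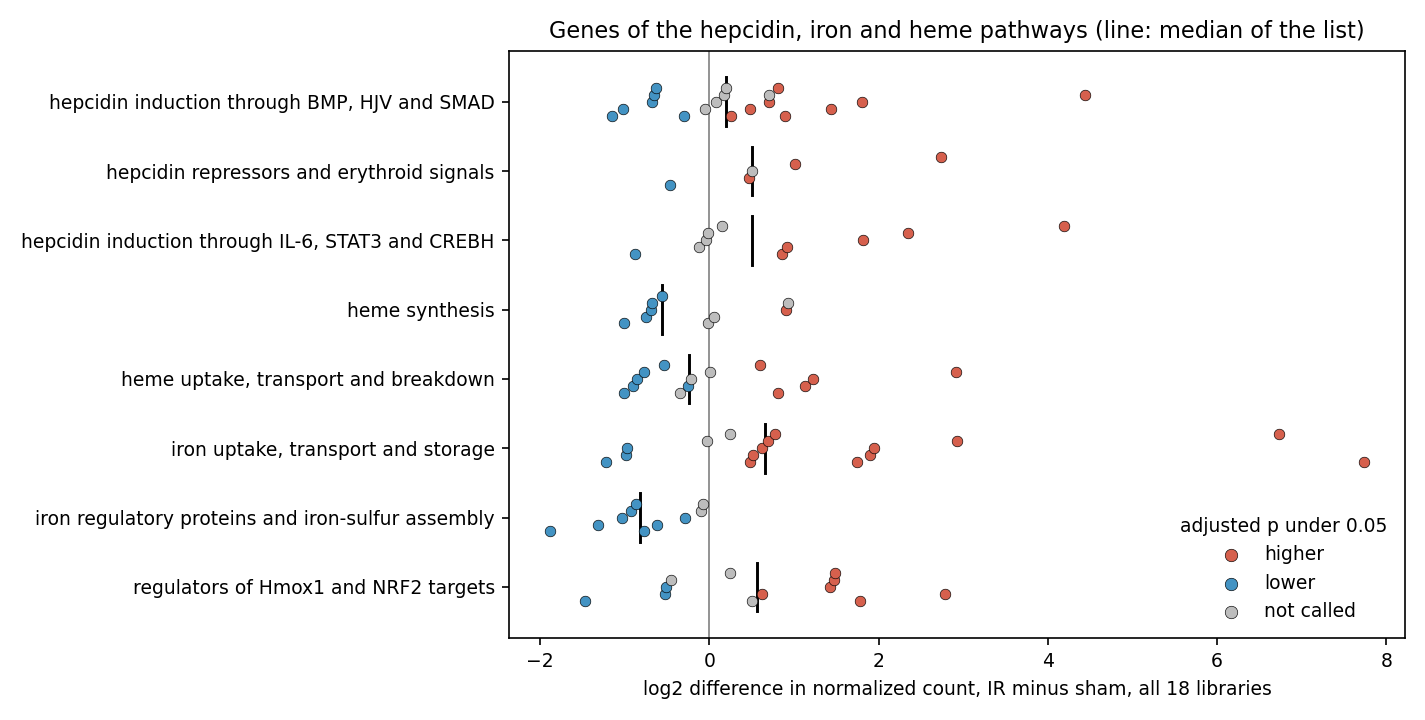
Log2 difference in normalized count, ischemia-reperfusion minus sham (horizontal axis), for each tested gene of 8 pathway lists over all 18 libraries. Points are genes, coloured by their call at an adjusted p under 0.05, and black lines are list medians. The list of iron regulatory proteins has its median at -0.82 and no gene called higher, and the list of iron uptake, transport and storage has its median at 0.66.

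In the list of iron uptake, transport and storage, 11 of 16 tested genes were higher, 3 were lower and 2 were not called, with a median difference of 0.66, and in the 12 libraries 9 were higher and 3 were lower. Lcn2, which binds iron-carrying siderophores, was at a median of 51080 against 196 normalized counts (7.74, SE 0.17, adjusted p = 6.6e-18). Scara5, a ferritin receptor, was at 15.5 to 862 against at most 4.51 (6.73, and 4.06 in the 12 libraries). Steap1 was at 5.23 to 50.6 against at most 5.18 (2.93) and was too low to be tested in the 12 libraries. Slc39a14, the transporter of iron not bound to transferrin, was at 5456 against 1674 (1.90, adjusted p = 8.25e-09). Its relative Slc39a8 was lower (-0.97), as were Heph, a ferroxidase related to Cp (-0.98), and Ncoa4, the receptor that delivers ferritin for degradation, at 69.2 against 166 (-1.22, adjusted p = 8.7e-09).

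Of the iron regulatory proteins and iron-sulfur cluster genes 8 of 10 were lower and none was higher in the limma fit (median difference -0.82), and the 12 libraries gave the same counts. Both iron regulatory proteins fell, Aco1 from a median of 2496 to 1398 normalized counts (-0.77, adjusted p = 1.42e-07) and Ireb2 from 992 to 425 (-1.32, SE 0.10, adjusted p = 1.95e-10). Fbxl5, which targets Ireb2 protein for degradation, fell from 555 to 294 (-0.86). The ferredoxin gene Fdx1 differed by -1.88, and Hscb, which serves iron-sulfur cluster assembly, by -1.03. Over the 8 lists, 94 distinct genes were tested, of which 39 were higher, 33 were lower and 22 were not called. Their called share of 76.6% equals that of all tested genes to within 1 percentage point. In the 12 libraries 85 of the 94 had the same call and 0 had the opposite one.

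Levels per kilobase were taken over the union of the exons of all annotated transcripts of a gene. That union was 410 bases for Hamp, 583 for Hamp2, 3469 for Fth1 and 9000 for Slc40a1. A single mRNA can be shorter than the union, so the order below depends on the annotation and does not rank transcript numbers. On this measure Hamp was highest of the 10 genes in both surgeries. Its medians were 29018 normalized counts per kilobase after sham surgery and 31480 after ischemia-reperfusion. Hamp2 was next in the sham libraries at a median of 6515, followed by Fth1 at 5025 and Trf at 4960, and the ranges of these neighbours overlapped. After ischemia-reperfusion Hamp2 took the eighth place, at a median of 376, and Fth1 (7942) and Trf (6669) followed Hamp. Slc40a1 was at 284 in the sham libraries, above Hmox1 at 198, with ranges that did not overlap. After ischemia-reperfusion Slc40a1 was at 68.8 and Hmox1 at 649, and again the ranges did not overlap. Tfrc was lowest in both, at 63.5 and 49.1 per kilobase, and after ischemia-reperfusion its range overlapped that of Slc40a1.

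Among the sham libraries, 1 of 90 relations between pairs of the 10 genes, counted over both surgeries, passed the adjustment. Fth1 and Cp ran in opposite directions over the 9 sham libraries (Pearson r = -0.99, permutation p = 0.00014, adjusted p = 0.0126; Spearman rho = -0.88, adjusted permutation p = 0.270). Without the 2 libraries farthest from the median of Fth1, r was -0.93. W8 held the highest Fth1 (28326) and the lowest Cp (6494) of the sham libraries. Fth1 and Ftl1 had r = 0.93 and Ftl1 and Cp r = -0.91, and neither passed the adjustment (permutation adjusted p = 0.160 and 0.199). The ischemia-reperfusion libraries fall into separate groups by their sex-linked transcripts, so no relation between the 10 genes is printed for them. Their pairs are part of the 90, and none of them passed the adjustment.

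**Figure D5:**
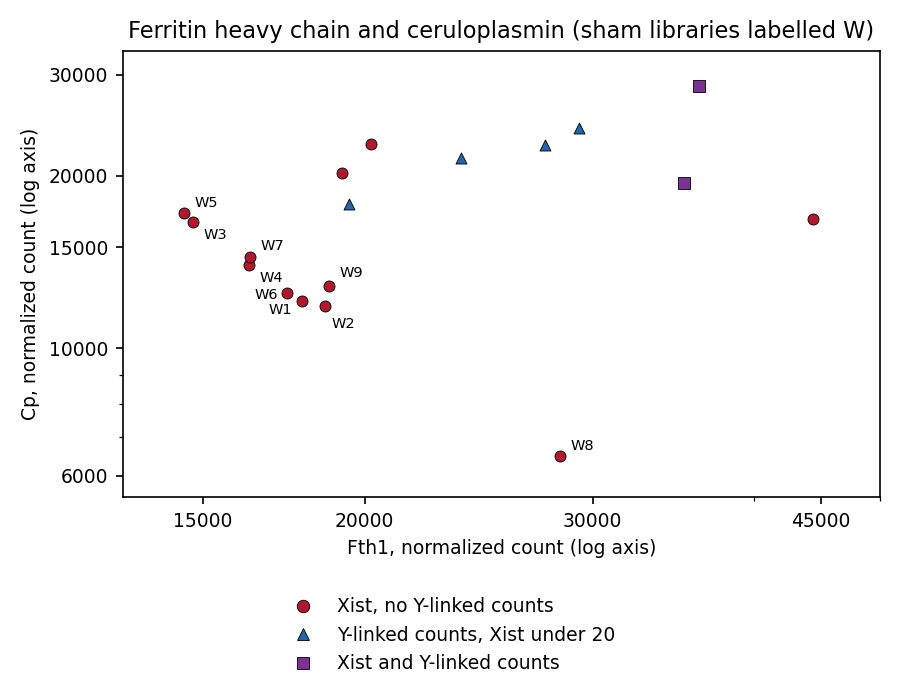
Fth1 (horizontal log axis) against Cp (vertical log axis), in normalized counts, for 18 libraries, with symbols by Xist and Y-linked counts and sham libraries marked W1 to W9. The sham libraries fall along a line from W5 at high Cp to W8 at 6494 Cp counts, and the ischemia-reperfusion libraries lie at 16806 Cp counts or more.

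The genes most like 4 of the members were sought by Pearson r of the log2 values over all 18 libraries after the mean of each surgery was subtracted, as a description. For Hmox1 they were the lipopolysaccharide co-receptor Cd14 (r = 0.96), Srgn (0.95) and Klf6 (0.95). Srgn was alike within both surgeries (0.96 and 0.92), whereas Cd14 and Klf6 were alike after ischemia-reperfusion (0.98 and 0.96) and less so in the sham libraries (0.43 and -0.13). For Hamp they were Gm28818 (0.82), Cep41 (0.77) and 2810001G20Rik (0.74). For Slc40a1 they were Jrkl (0.87), Dnajc25 (0.82) and Zfp322a (0.82), and for Tfrc Hhex (0.71), Traf3ip1 (0.71) and Tada2b (0.67). The points share the sex-linked split of the ischemia-reperfusion libraries, which the surgery means do not remove.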

How the data were processed

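Liver RNA of 18 mouse samples was sequenced. Per the submitters' processing notes, the authors used STAR 2.5.0a, Trimmomatic 0.33 and DESeq2 1.14, on GRCm38. Which counter, annotation and strand setting were used is not given in the sources used here. The table the authors deposited holds normalized counts (signal), which are gene counts divided by a size factor for each library. Size factors recovered from the steps of the values ran from 0.866 to 1.34, and 100% of the values came out as whole reads within 0.001. The W columns were read as sham by elimination. The labels do not explain W.

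Differences were tested with limma 3.58.1 (R 4.3.3, intensity trend, two-sided) on log2(normalized count + 1) over the 12686 genes with a mean of at least 10, adjusted by the Benjamini-Hochberg method and called under 0.05. Fold changes are on that scale and understate changes of low genes. The script was tested on simulated data. The alternatives were other pseudocounts, filters and scalings, robust and weighted limma, a replicate block, edgeR 4.0.16 and DESeq2 1.42.0 on the recovered reads, and leaving out each library. The comparison without Y-linked libraries (summed Y-linked level under 10), the Y-linked covariate and their own alternatives were chosen after seeing the data.

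The 10 genes and the gene lists were chosen with earlier results of these data known. Of each list the text names the 3 called genes with the largest rise and the 3 with the largest fall, and of each marker list the 2 genes with the highest level. The result of 1 marker list is not reported here. Other genes named (Id1, Acvr1, Hfe2, Aco1, Fbxl5, Slc39a14, Alas1, Alas2, Marco, Hnf4a and Cd163 among them) were added after seeing the values. Promoters come from RefSeq (250 bases before to 50 after each start), and 7 of 10 genes had an entry.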

Additional observations from a re-analysis of the deposited data

Results flagged for a closer look

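Of 20 sets of 9 libraries (10 genes in 2 surgeries), 5 held a library that stood apart from the rest by Dixon's test at its 95% critical value. For independent sets of normally distributed values, chance would give this in about 1 of 20 sets. The gaps were taken on normalized counts without logarithms, and the 20 sets share the same libraries. The 5 flags therefore cannot be set against that rate. Hamp2 in IR9 was at 1162 normalized counts with the next library at 415, a gap of 0.649 of the whole range. Slc40a1 in W5 was at 3763 with the next library at 2906, a gap of 0.577. The other 3 values belong to the sham library W8. It held Fth1 at 28326 (next 18770, gap 0.691), Ftl1 at 3328 (next 1749, gap 0.688) and Cp at 6494 (next 11874, gap 0.502). W8 also had the lowest Xist of the sham libraries, at 1751 normalized counts.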

How the results depend on the processing

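Under every alternative other than those chosen after seeing the data, and with each library left out, the members called stayed at 5 higher and 2 lower, and each member kept its side of the threshold. The 1 change of sign was Ftl1, which ran from -0.14 to 0.075 with 1 library left out, the highest without W8. With the alternatives chosen after seeing the data included, the whole-table counts ran from 4159 to 6335 higher and from 4252 to 5574 lower. Without the libraries that carry Y-linked counts, Hamp passed the test (0.78), and Tfr2 (0.29) and Fth1 (0.54) no longer did. With the Y-linked level as a covariate Hamp passed (0.75), Fth1 kept its call (0.64), and Tfr2 (0.27) and Trf (0.38) no longer passed. Within the 12 libraries, edgeR on the recovered reads called Tfr2 (0.35) and Fth1 (0.66). Leaving out 1 of those 12 libraries at a time moved Tfr2 from 0.18 to 0.49, Trf from 0.33 to 0.55, Fth1 from 0.15 to 0.75 and Cp from 0.52 to 0.75. The cause was not tested. Over all 18 libraries, Hamp2 was -4.06 with edgeR and -4.04 with DESeq2, against -5.01, and Hmox1 was 2.55 and 2.58, against 1.97. Libraries with the same header number did not vary together (correlations of -0.098 to 0.125, 1 of 9 pairs over 0.1, and 0 libraries correlated best with their own number). With the header number as a replicate block, 4821 genes were higher and 4751 lower, against 4860 and 4781. The relation of Fth1 and Cp was -0.99 at a pseudocount of 8. Genes under a mean of 10, such as Il6, Epo and Erfe, were too low for a test at this depth.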
